A study of Mus musculus with 4 samples.

Results

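ETS proteins are transcription factors that share a DNA-binding domain recognising a GGAA core. Slug (gene Snai2) and Snail (gene Snai1) peaks were examined at 9 ETS genes, in 2 groups labelled epithelial and mesenchymal. The labels belong to the chosen lists and do not say that a gene acts in that setting alone. The epithelial group held 4 genes, Elf3, Elf5, Ehf and Spdef, and the mesenchymal group held 5, Ets1, Ets2, Etv4, Etv5 and Elk3. A peak was counted for a gene when it overlapped the gene's RefSeq span or the 50 kb on either side by at least 1 bp. All 9 genes were found among the 21887 protein-coding genes of the annotation. Their windows held 46 of 41612 Slug peaks and 35 of 28375 Snail peaks.

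Slug and Snail are zinc finger repressors that bind the E-box CAGGTG and can start the epithelial-mesenchymal transition, in which cells lose epithelial junctions and become motile. Elf3, Ehf and Spdef are expressed in glandular and surface epithelia, and Elf5 directs the milk-producing alveolar lineage of the mammary gland and is known to repress Snai2 there. Ets1 and Ets2 activate genes downstream of Ras and MAP kinase signalling, among them matrix proteases. Etv4 and Etv5 belong to the PEA3 group, which responds to fibroblast growth factors, and Elk3 is a ternary complex factor that works with serum response factor.

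The 4 samples were 2 ChIP-seq libraries and 2 input DNA libraries, from lines grown without treatment. Both lines, pBl.1G and pBl.3G, are MMTV-PyMT breast cancer lines, and in that mouse model the mouse mammary tumour virus promoter, active in mammary epithelium, drives the polyoma middle T oncogene. pBl.1G is labelled epithelial with high Slug and was precipitated with a rabbit monoclonal antibody to Slug. pBl.3G is labelled mesenchymal with high Snail, and the label of its antibody names Slug as well as Snail as targets. There was 1 library for each factor, made from different lines with different antibodies. These cannot be told apart, no test of a difference was possible, and the counts below describe these 2 libraries. Peak lists hold no expression values, so neither the cell labels nor the grouping of the genes could be checked against RNA.

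The promoters of these genes are shown first, because Snail peaks lay over some of them and CAGGTG is the E-box that Snail and Slug bind. RefSeq promoter windows (GRCm38.p6, the assembly of mm10) were at hand for 6 of the 9 genes, Elf3, Elf5, Spdef, Ets2, Etv5 and Elk3, and reached from 250 bases before to 50 bases after a start. Below are the 250 bases before the first start listed for each, 5′ to 3′ on the gene's strand. CAGGTG or its reverse complement CACCTG is in capitals. The start listed for Spdef, 27728951, lies inside the gene span, which reaches 27731003 upstream of it. The first 3 sequences, of epithelial genes, overlapped no peak of either factor, and Elf3 and Elf5 held such E-boxes while Spdef held none. Of all promoter windows with a peak of neither factor, 22.3% hold a match to CAGGTG or CACCTG. The last 3, of mesenchymal genes, were each covered by a Snail peak and held none, and 16.7% of all promoter windows with a Snail peak hold a match.
Elf3, chr1:135258473-135258722, minus strand: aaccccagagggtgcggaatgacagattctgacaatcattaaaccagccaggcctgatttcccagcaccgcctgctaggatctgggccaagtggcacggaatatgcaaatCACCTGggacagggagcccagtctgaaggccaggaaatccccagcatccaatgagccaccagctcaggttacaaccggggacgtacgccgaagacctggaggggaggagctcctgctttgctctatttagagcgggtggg
Elf5, chr2:103411848-103412097, plus strand: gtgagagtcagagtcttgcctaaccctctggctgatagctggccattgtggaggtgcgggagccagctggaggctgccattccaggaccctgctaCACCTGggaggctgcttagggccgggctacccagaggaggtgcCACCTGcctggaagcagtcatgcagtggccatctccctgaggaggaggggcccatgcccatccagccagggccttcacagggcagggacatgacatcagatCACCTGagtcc
Spdef, chr17:27728952-27729201, minus strand: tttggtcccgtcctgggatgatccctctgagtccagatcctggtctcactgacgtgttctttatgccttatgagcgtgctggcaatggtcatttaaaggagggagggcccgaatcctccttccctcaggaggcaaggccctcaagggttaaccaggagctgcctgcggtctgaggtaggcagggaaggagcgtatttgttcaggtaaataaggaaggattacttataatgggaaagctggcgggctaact
Ets2, chr16:95702157-95702406, plus strand: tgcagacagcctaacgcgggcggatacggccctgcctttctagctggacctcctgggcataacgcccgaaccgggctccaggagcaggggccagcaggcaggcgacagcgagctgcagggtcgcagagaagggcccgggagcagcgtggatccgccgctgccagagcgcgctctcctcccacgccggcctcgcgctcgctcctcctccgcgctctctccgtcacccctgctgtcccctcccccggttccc
Etv5, chr16:22439571-22439820, minus strand: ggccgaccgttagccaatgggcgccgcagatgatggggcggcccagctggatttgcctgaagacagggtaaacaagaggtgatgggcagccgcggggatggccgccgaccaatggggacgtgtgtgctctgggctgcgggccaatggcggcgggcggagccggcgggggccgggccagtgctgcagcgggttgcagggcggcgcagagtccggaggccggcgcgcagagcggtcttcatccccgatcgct
Elk3, chr10:93311160-93311409, minus strand: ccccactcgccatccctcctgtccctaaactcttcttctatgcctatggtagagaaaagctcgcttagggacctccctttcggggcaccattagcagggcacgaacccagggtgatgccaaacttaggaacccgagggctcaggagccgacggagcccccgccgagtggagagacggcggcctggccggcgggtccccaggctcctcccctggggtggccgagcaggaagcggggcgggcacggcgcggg

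Slug peaks lay around every gene of the set and Snail peaks around all but Ehf. For Slug this was 9 of 9 genes, against 83.6% of all protein-coding genes, and for Snail 8 of 9, against 78.3%. Peaks of both factors lay around 8 of 9, against 71.8%. Windows this wide hold a peak at most genes, so these shares are close to the background. The numbers of peaks were more uneven. The 4 epithelial windows, 500 kb in all, held 15 Slug and 6 Snail peaks, which is 3.00 and 1.20 peaks per 100 kb. The 5 mesenchymal windows, 778 kb in all, held 31 Slug and 29 Snail peaks, or 3.99 and 3.73 per 100 kb. The Slug list is the longer, and with the Slug list cut to the length of the Snail list by score the epithelial windows held 7 Slug and 6 Snail peaks and the mesenchymal windows 21 and 29. A score of at least 100 was reached by 39.7% of the whole Slug list and 63.0% of the whole Snail list. Among such peaks the mesenchymal windows held 9 Slug and 18 Snail peaks. The relation of Slug to Snail numbers around the mesenchymal genes therefore turned with either setting. The median protein-coding gene had 1.81 Slug and 1.95 Snail peaks per 100 kb. By the median over genes, the epithelial group had 3.09 Slug and 1.58 Snail peaks per 100 kb and the mesenchymal group 4.27 and 2.71.

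More Slug than Snail peaks were found at all 4 epithelial genes, which holds for 35.5% of protein-coding genes. Elf3 and Elf5 each had 5 Slug and 2 Snail peaks, Spdef had 3 and 2, and Ehf had 2 and 0. The mesenchymal genes were divided. Etv4 had 10 Slug and 6 Snail peaks and Ets2 had 6 and 3, while Etv5 had 4 of each. Ets1 had 4 Slug and 6 Snail peaks and Elk3 had 7 and 10, so Snail peaks were more numerous at 2 of these 5 genes, against 43.5% of protein-coding genes. The highest Snail count among the epithelial genes, 2, was below the lowest among the mesenchymal genes, 3, whereas the Slug counts of the groups overlapped. Over all protein-coding genes the median Snail count was 3, with quartiles of 1 and 5. The groups were thus parted near the middle of all genes, where counts of 2 or 3 are common. Per 100 kb the Snail groups did not overlap either, with 0 to 1.91 peaks at epithelial and 2.53 to 6.11 at mesenchymal genes. The median over all protein-coding genes was 1.95, with quartiles of 0.612 and 3.98, so this gap also lay near the middle of all genes. Neither pattern held in every setting. Slug peaks stayed more numerous at 2 of the 4 epithelial genes for scores of at least 100 (equal at the others). They did so at 2 of 4 with equal numbers of peaks in both lists, where Elf3 had 2 of each and Spdef had 1 Slug and 2 Snail peaks. With 10 kb on each side they did at 3 of 4, with 1 of each at Elf3. With 100 kb it was again 3 of 4, as Spdef had 6 Slug and 11 Snail peaks. The Snail counts of the groups met at 2 for scores of at least 100 and at 1 with 10 kb, and with 100 kb they overlapped, since Spdef then had 11 and Ets2 and Etv5 had 5.

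**Figure D1:**
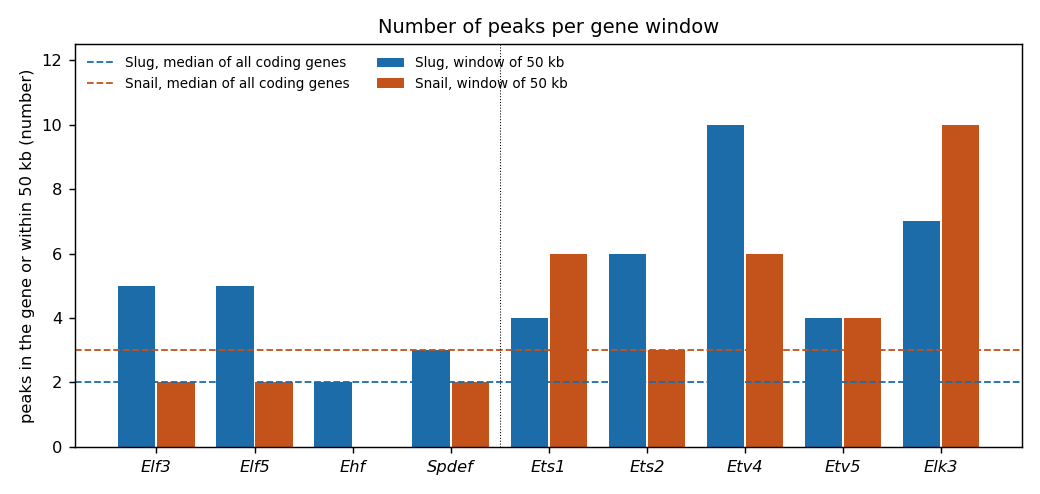
Bars give the number of Slug and Snail peaks in each gene or within 50 kb of it, with 1 library for each factor and hence no error bars. Dashed lines mark the medians over all protein-coding genes, 2 for Slug and 3 for Snail, and the dotted line parts the epithelial genes on the left from the mesenchymal genes; no epithelial gene exceeds 2 Snail peaks, and every mesenchymal gene has at least 3.

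The groups also differed inside the genes. A Snail peak overlapped the span of all 5 mesenchymal genes and of 0 of 4 epithelial genes, against 58.7% of protein-coding genes. Slug peaks overlapped the span of 3 of 4 epithelial genes, all but Elf3, and of all 5 mesenchymal genes, against 37.2%. These shares depend on gene length, and the mesenchymal genes were longer, with a median span of 58.3 kb against 27.7 kb. Among protein-coding genes the share with a Snail peak in the span rose from 25.7% in the shortest quintile to 75.9% in the longest, and for Slug from 5.14% to 83.1%. The lengths of the groups overlapped. Ehf and Elf5, at 39.8 and 38.9 kb, had no Snail peak in a length class where 71.9% of genes have one, and Etv4 and Ets2, at 15.6 and 18.6 kb, each had a Snail peak in a class where 66.2% of genes do. Spdef, at 16.6 kb, fell in that same class and had none.

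Snail peaks were found at the ends of most mesenchymal genes, and some of them are among those counted above. At Ets2 and Etv4 the only Snail peak that overlapped the span was the one at the end. A Snail peak lay within 1 kb of an end at 4 of 5 mesenchymal genes, Ets2, Etv4, Etv5 and Elk3, and at 1 of 4 epithelial genes, Elf3, against 51.3% of protein-coding genes. A Slug peak lay there at Etv4 alone of the 9, against 13.0%. The score that the authors' peak caller gave each peak was used to rank peaks within their own list. In an alternative it also set the same lowest score, 100, for both lists. Slug and Snail scores are on no common scale. The list medians were 81.1 for Slug and 151 for Snail, and the lowest score was 50 in both.

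**Figure D2:**
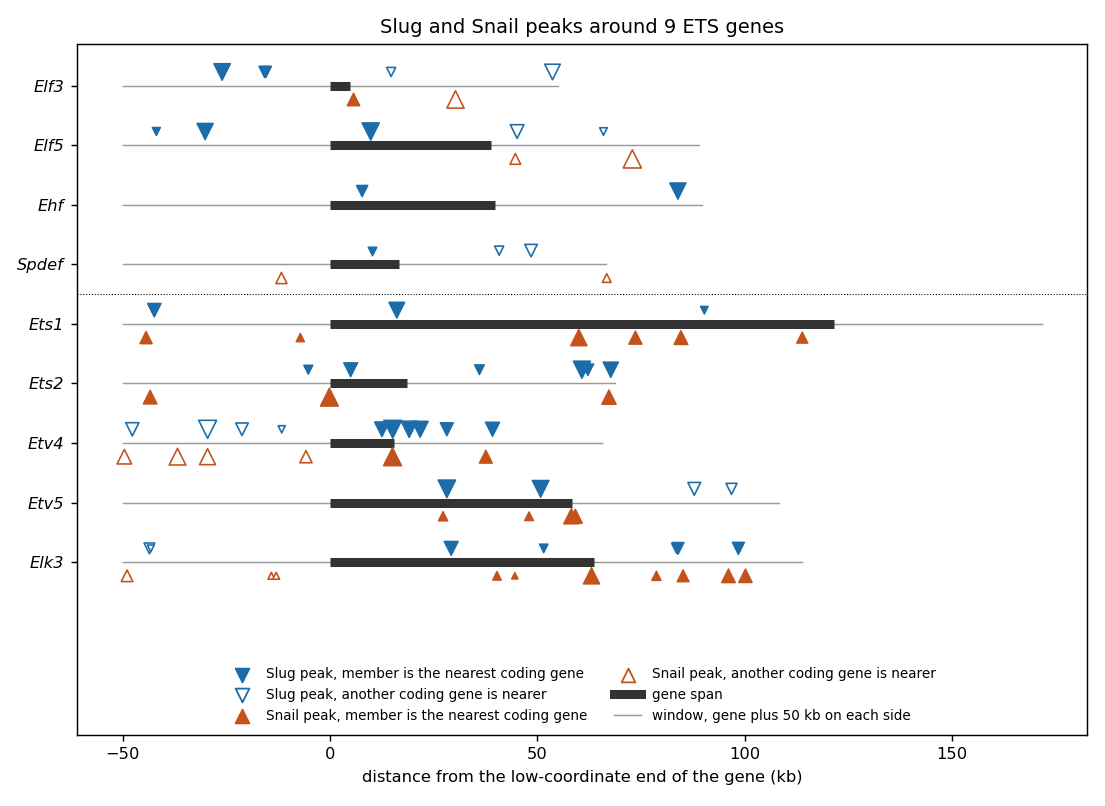
Each row is a gene, drawn from its low-coordinate end at 0 kb, with the span as a black bar and the window of 50 kb on each side as a grey line; triangles above are Slug peaks and triangles below are Snail peaks, larger for a higher score percentile within their own list. Filled triangles are nearest to the gene itself and open ones to another protein-coding gene; all 5 mesenchymal spans carry a filled Snail triangle at or inside the gene, and of the epithelial genes only Elf3 has a filled one, just outside its span.

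Elf3 encodes an epithelial ETS activator. The gene spans chr1:135253574-135258472 on the minus strand, and its 5 Slug peaks all lay outside it. The highest-scoring, chr1:135227374-135227774, had a score of 179, at percentile 80.5 of its list, and was centred 26.0 kb beyond the low-coordinate end, downstream of the gene. A Snail peak with a score of 107, chr1:135258888-135259504, was centred 0.724 kb upstream of the start. It stopped 165 bp short of the promoter window printed above, and its score was at percentile 39.6 of the Snail list. The second Snail peak had a score of 949, but it was centred 0.621 kb from an end of the neighbour Rnpep, an aminopeptidase gene.

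Elf5, the alveolar regulator, spans chr2:103412098-103450989 on the plus strand and has 2 promoter windows in RefSeq. Its highest-scoring Slug peak, chr2:103421802-103422057, was inside the gene with a score of 259, at percentile 89.1 of the list. This was the highest Slug score of any epithelial gene in the set. The peak was centred 9.83 kb after the first start and at -2.14 kb from the second, which is at 103424068. Both Snail peaks of the window were nearer to Cat, the catalase gene. One of them, with a score of 1752, was centred 0.137 kb from an end of Cat, and the other, chr2:103456601-103457009, scored 77.3 and lay 101 bp from a Slug peak with a score of 81.3.

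Ehf, a close relative of Elf3 in epithelia, neighbours Elf5 on chromosome 2, and the windows of the pair did not meet. It spans chr2:103263431-103303275 and had 2 Slug peaks and no Snail peak. One Slug peak lay 7.76 kb inside the low-coordinate end with a score of 61.9. The other, chr2:103347187-103347495, scored 157 and was 44.1 kb beyond the high-coordinate end, between Ehf and Elf5. The nearest Snail peak was 109 kb from the latter Slug peak.

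Spdef, known from prostate, goblet cells and luminal breast epithelium, spans chr17:27714446-27731003 and had only low-ranked peaks. Its 3 Slug scores ran from 53.5 to 69.2, all below the Slug median. The Slug peak inside the gene, chr17:27724425-27724571, scored 53.5 and was 4.45 kb after the RefSeq start at 27728951. The Snail peaks scored 82.6 and 60.3 and were nearer to the neighbours Pacsin1 and Ilrun. A single Snail peak, that of Elf3, was therefore nearest to an epithelial gene of the set, whereas 22 of the 29 Snail peaks around the mesenchymal genes were nearest to them. For Slug these numbers were 9 of 15 and 23 of 31. A peak centred inside a gene counts as nearest to it, which favours longer genes. Of the Snail peaks, 11 were centred inside the mesenchymal genes and 0 inside the epithelial genes. No such share was taken over all protein-coding genes.

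Ets1, which spans chr9:32636241-32757820, was the mesenchymal gene without a peak of either factor within 1 kb of an end. It had 4 Snail peaks inside its span, more than any other gene of the set. The highest-scoring, chr9:32695359-32697163, was 1805 bp wide with a score of 610, at percentile 76.9 of the Snail list, and was centred 60.0 kb inside the gene. The highest-scoring Slug peak, chr9:32652259-32652479, scored 136 and was 16.1 kb inside the low-coordinate end. No Slug and Snail peak of Ets1 overlapped.

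Ets2, a relative of Ets1 that answers to MAP kinase signalling, had a Snail peak across its start. The peak spanned chr16:95701386-95703165 with a score of 1498, at percentile 96.9 of the Snail list, and covered the whole promoter window printed above. The 6 Slug peaks of Ets2 were elsewhere. The nearest to the start was 5.00 kb into the gene with a score of 84.1, and the highest-scoring, chr16:95762799-95763562, scored 242 and was 42.1 kb beyond the gene's end. Near the edge of the window, 49.1 kb beyond that end, a Slug peak at chr16:95770014-95770237 with a score of 115 lay inside a Snail peak with a score of 199.

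Etv4, or Pea3, was first known as an activator of the polyomavirus enhancer. It had the most Slug peaks of the set. Its 10 Slug peaks gave 8.65 per 100 kb, at percentile 99.7 of all protein-coding genes. Its 5.19 Snail peaks per 100 kb were at percentile 83.9. At the high-coordinate end of the gene, which spans chr11:101769747-101785310, a Snail peak of 2389 bp, chr11:101783640-101786028, scored 1711, at percentile 98.4 of its list. Inside it lay the Slug peak chr11:101784717-101785060, whose score of 442 was the highest Slug score of the 9 genes, at percentile 96.5.

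The window of Etv4 held a second overlapping pair, with a Slug peak at chr11:101739811-101740686, score 426, inside the Snail peak chr11:101739753-101740709, score 514. The pair was 29.5 kb outside Etv4 and lay inside the neighbour Dhx8, an RNA helicase gene, 7.29 kb from its low-coordinate end. In all, 4 of the 10 Slug and 4 of the 6 Snail peaks of this window were nearer to Dhx8. The other 6 Slug peaks were nearest to Etv4. Besides the Slug peak under the Snail peak at the high-coordinate end, 3 of them lay within 10 kb of that end, 1 inside the gene with a score of 99.6 and the others outside with scores of 160 and 145.

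Etv5, the PEA3 relative also called ERM, spans chr16:22381313-22439570 on the minus strand. A Snail peak, chr16:22439250-22439825, covered its first promoter window with a score of 332, at percentile 65.8. A second, chr16:22439837-22441151, began after a gap of 11 bp, with a score of 170 and its centre 0.924 kb upstream. The 2 highest-scoring Slug peaks were inside the gene, at chr16:22409387-22409636 with a score of 315 and at 7.45 kb after the start with a score of 194. The first of these was at percentile 92.7 of its list and lay 569 bp from a Snail peak with a score of 64.1. The remaining pair of Slug peaks was nearer to Dgkg, a diacylglycerol kinase gene.

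Elk3, also named Net, spans chr10:93247415-93311159 on the minus strand and had the most Snail peaks of the set, 10, or 6.11 per 100 kb, at percentile 88.8. The widest, chr10:93308983-93312005, measured 3023 bp, scored 602 and covered the promoter window. The other 9 Snail peaks scored 50.3 to 153. Its 7 Slug peaks were weak, from 50.6 to 85.7, and the highest of them was 29.2 kb inside the low-coordinate end. Slug and Snail peaks lay beside each other upstream of Elk3 without overlapping. Of 2 Slug peaks centred 19.9 and 20.2 kb upstream, the latter was 897 bp from a Snail peak.

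Somewhat more peaks around the set scored below the median of their list than above it. Of the 46 Slug peaks, 19 scored above the Slug median, and 14 of the 35 Snail peaks scored above the Snail median. The median Slug percentile was 30.3 around the epithelial and 44.5 around the mesenchymal genes, and the median Snail percentile was 34.3 and 45.4. In the top 10% of their list were 3 of the 46 Slug peaks, at Etv4, at Etv5 and inside Dhx8 in the window of Etv4. The same held for 3 of the 35 Snail peaks, at Ets2, at Etv4 and beside Elf5 at the end of Cat. By definition 10% of each whole list ranks there, so these counts were close to the background.

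**Figure D3:**
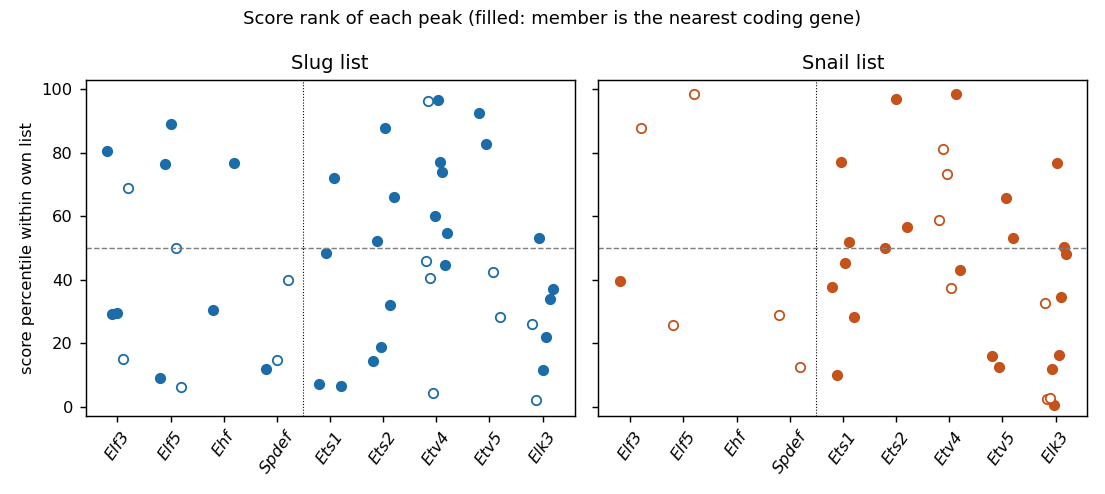
Points give the score percentile of each peak within its own list, Slug on the left and Snail on the right, with the list median dashed at 50; open points are nearer to another protein-coding gene. Filled Slug points reach the top 10% at Etv4 and Etv5 and filled Snail points at Ets2 and Etv4, and the 2 high Snail points at Elf3 and Elf5 are open.

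As in the whole lists, most Slug and Snail peaks at these genes did not overlap. Of the 3 overlapping pairs, 1 was in the window of Ets2 and 2 were in that of Etv4, where 1 pair lay inside Dhx8. These pairs made up 6.52% of the 46 Slug peaks (95% exact interval 1.37 to 17.9) and 8.57% of the 35 Snail peaks (1.80 to 23.1). In the whole lists 12.1% of Slug and 16.6% of Snail peaks overlapped. Among peaks in the windows of all protein-coding genes, 13.9% of Slug and 15.7% of Snail peaks did. These values lie inside the intervals, which cover counting error only. An overlapping pair was thus found at 2 of 9 genes, against 35.0% of protein-coding genes. Around the epithelial genes it was 0 of 15 Slug peaks (95% exact interval 0 to 21.8%), and 3 peaks, the limit that a count of 0 allows, would be 20%. The median distance from a Slug peak to the nearest Snail peak was 21.5 kb around the epithelial and 4.11 kb around the mesenchymal genes. This distance depends on the number of Snail peaks, 6 and 29 in these windows, and was not taken over all Slug peaks.

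The promoters with a Snail peak differed from the others in base composition. In the windows of 300 bases, GC content was 71.7% for Ets2, 74.0% for the first start of Etv5 and 71.3% for Elk3, the 3 windows that a Snail peak covered. It was 59.0% for Elf3, 60.7% and 55.3% for the first and second start of Elf5, 53.3% for Spdef and 60.0% for the second start of Etv5, none of which overlapped a Snail peak. No member window overlapped a Slug peak. Among all 21263 promoter windows of protein-coding genes, a Snail peak overlapped 49.2% and a Slug peak 3.97%. The Snail share was 8.52% in the quintile with the lowest GC content and rose through 31.1% (where Spdef fell), 55.5% (Elf3 and the second start of Elf5) and 74.9% (the first start of Elf5 and the second of Etv5) to 78.2% in the highest (Ets2, Elk3 and the first start of Etv5). The part of base composition in the contrast between the groups was not tested.

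**Figure D4:**
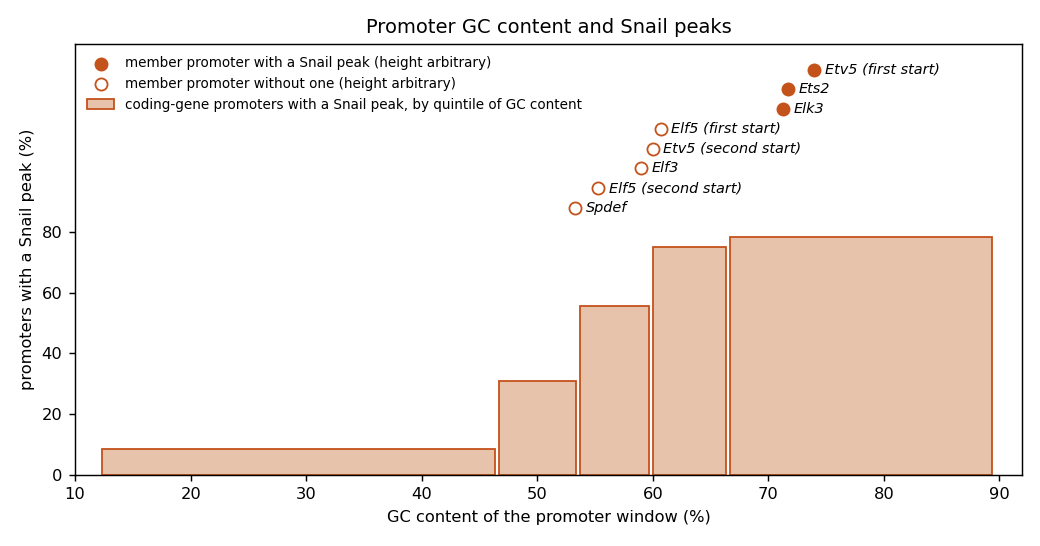
Bars give the share of promoter windows with a Snail peak in each quintile of protein-coding promoters by GC content, drawn from the lowest to the highest GC content of the quintile. Points mark the GC content of the 8 member promoter windows at an arbitrary height, and the 3 filled points, Etv5 at its first start, Ets2 and Elk3, lie to the right of all 5 open ones.

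The CAGGTG E-box was found in the windows of Elf3 and Elf5 alone. Either CAGGTG or CACCTG, which covers both strands, was found 3 times at the first start of Elf5, beginning 155, 112 and 11 bases before it, and once 22 bases after its second start. Elf3 had a single match, beginning 140 bases before its start. Spdef, Ets2, Elk3 and both windows of Etv5 had none of these letters. Over all promoter windows 19.7% held a match, and the share was 16.7% of those with a Snail peak, 39.4% of those with a Slug peak and 22.3% of those with neither. Its absence from the 3 member windows with a Snail peak is thus what most such windows show. The wider motif CANNTG, which includes CAGGTG, occurred in 69.0% of all windows and the ETS core GGAA or its complement TTCC in 95.7% of them. CANNTG was found in 60.7% of the windows with a Snail peak, 74.6% of those with a Slug peak and 77.0% of those with neither, and GGAA or TTCC in 95.5%, 95.5% and 96.0%. The member windows held 0 to 5 matches to CANNTG. Among the member windows, GGAA or TTCC was absent only from the first start of Etv5.

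Most other ETS genes had peaks of both factors too. Of 17 further ETS genes, 16 had a Slug peak in the gene or within 50 kb, against 83.6% of protein-coding genes, and 15 a Snail peak, against 78.3%, with a median of 3 peaks of each factor. Gabpa, which binds many housekeeping promoters, had no Slug peak. Erg, an endothelial factor, and Fev, a factor of serotonergic neurons, had no Snail peak. More Slug than Snail peaks were counted at 6 of the 17, against 35.5%, and more Snail than Slug at 11, against 43.5%. A Snail peak lay within 1 kb of an end at 11 of the 17, against 51.3%, and a Slug peak at 2, against 13.0%.

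By score, the strongest Slug peaks of the other family members were at Erg, with 701, and Etv3, with 476, and the strongest Snail peaks at Elk4, with 2347, and Elf1, with 1634. Further genes stood out in number and were picked after their values were seen. Erf, a repressor of the family, had 15 Snail and 2 Slug peaks in a window shared with several neighbours, and Etv6 had 12 Slug and 4 Snail peaks over a span of 234 kb. Fli1, which adjoins Ets1, had 7 Slug peaks and 1 Snail peak, and that Snail peak was the outermost of Ets1, with a score of 102.

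**Figure D5:**
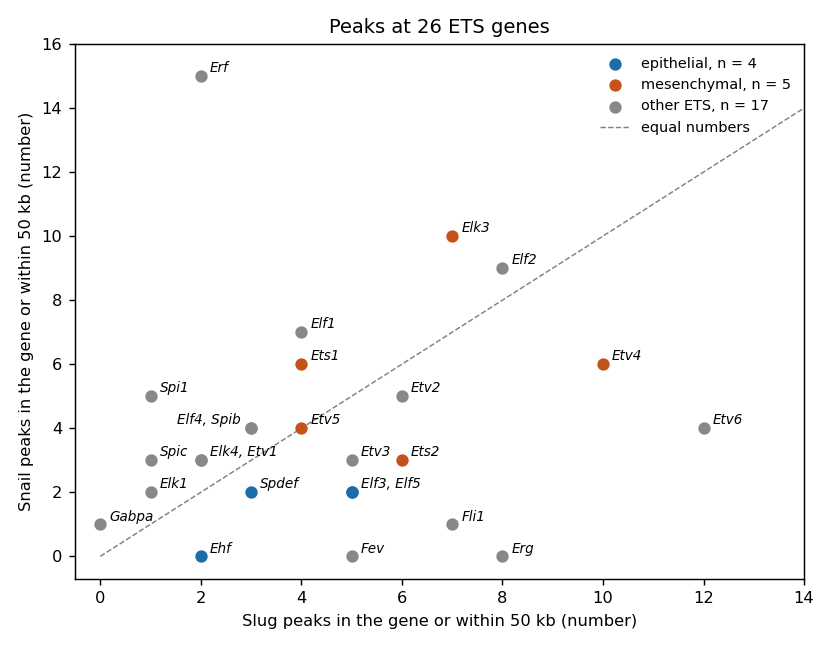
Each point is an ETS gene, placed by its number of Slug peaks on the horizontal and of Snail peaks on the vertical axis, counted in the gene or within 50 kb, and the dashed line marks equal numbers. The 4 epithelial genes lie below the line with at most 2 Snail peaks, and the mesenchymal genes lie on both sides of it, with Etv5 on it at 4 of each.

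Peaks lay close to the limit of 50 kb on both sides of it. Just inside were the Ets2 Slug peak at 49.1 kb and a Snail peak of Spdef with a score of 60.3, whose centre was 50.2 kb out and whose edge reached the window. Just outside were a Slug peak 51.9 kb from Elk3 with a score of 129 and Snail peaks 50.8 kb from Elk3 and 55.2 kb from Elf3, with scores of 62.7 and 1439. The latter was at an end of Timm17a, a neighbour of Elf3.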

How the data were processed

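ChIP-seq peak lists of the Slug library (pBl.1G cells) and the Snail library (pBl.3G cells) were analysed, and the 2 input libraries were not analysed here. Per the labels' protocols, fixation took 10 min in 1% formaldehyde and DNA was sonicated to about 200 to 500 bp. The submitters' processing notes name Bowtie, MACS 1.4.2 and mm10. Caller settings and the role of the input were not given in the sources used here. The deposited values are peak positions with a score from the authors' peak caller, whose scale is not stated. No counts or signal were used, so depth is unknown.

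Starts were made 1-based. Genes came from the RefSeq table of GRCm38.p6 (21887 protein-coding genes), and strand and promoter sequence from a RefSeq promoter table that held 17492 of them. Peaks overlapping by at least 1 bp were called shared. The nearest protein-coding gene was that whose span or end was closest to the peak's midpoint. Counting used pandas 2.3.3, numpy 2.4.6 and scipy 1.17.1 under Python 3.11.15, plots used matplotlib 3.10.9, and the counting steps were checked on simulated peaks. With 1 library for each factor no test was made. Background shares are over all protein-coding genes or promoter windows.

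The members and lists were chosen with earlier results of these data known. Named were all 9 members with their end peaks, their highest-scoring peak of each factor and every overlapping pair. Of the 17 other ETS genes, those with the 2 highest scores of each factor and those lacking a factor were named. A neighbour was named where it lay nearer to a named peak. Alternatives varied the window, the lowest score, the placement rule, the number of peaks, the assignment to the nearest gene and the overlap.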

Additional observations from a re-analysis of the deposited data

How the results depend on the processing

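The number of members with a Slug peak (9) stayed within 1.5 times under all 6 alternatives that apply to it, between 7 and 9, and that with a Snail peak (8) between 6 and 8. The numbers of peaks moved with the window and the score. With 10 kb on each side, Slug and Snail peaks numbered 5 and 2 at the epithelial and 12 and 15 at the mesenchymal genes, with 1 overlapping Slug peak. With 100 kb on each side the epithelial genes had 28 Slug and 18 Snail peaks. A score of at least 100 left 5 Slug and 3 Snail peaks at epithelial and 9 Slug and 18 Snail peaks at mesenchymal genes. Snail peaks thus outnumbered Slug peaks at the latter, but this score keeps 39.7% of the whole Slug list and 63.0% of the whole Snail list. Equal numbers of peaks in both lists left 7 Slug peaks at the epithelial and 21 at the mesenchymal genes, with the 6 and 29 Snail peaks as before. Counting only peaks whose nearest protein-coding gene was the member left 9 Slug peaks and 1 Snail peak at the epithelial genes. Requiring the overlap to cover at least 50% of both peaks left 1 overlapping Slug peak. In all, 28 of 43 recomputed counts stayed within 1.5 times of the reported ones. In sum over the 4 epithelial genes Slug peaks outnumbered Snail peaks under all 6 alternatives that apply, though with equal numbers of peaks by 7 to 6. No paired analysis was possible because each factor has 1 library and the labels give no replicate numbers, and for the same reason no library could be left out. Depth is unknown, so a missing peak is not evidence that a factor was absent.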

Other observations

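Slug peaks of the same list lay close together at some of these genes. Of the 46 Slug peaks, 8 (17.4%) had another Slug peak within 500 bp, against 5.90% of the whole Slug list, and of the 35 Snail peaks 2 (5.71%) had another Snail peak that near, against 12.97% of the whole list. The 4 Slug pairs lay downstream of Elf3, outside the low-coordinate end of Ets1 and on both sides of Elk3, with gaps of 176, 91, 164 and 133 bp. All 8 peaks scored below the Slug median, between 50.6 and 79.0. The Snail pair was the one at the start of Etv5. The distance of 500 bp was chosen after the peaks were seen.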
